A study of Mus musculus with 17 samples.

Results

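Immediate early and heat shock genes were followed across mouse mammary gland macrophages and basal cells as a module of 38 genes, 24 immediate early and 14 heat shock. The members were taken by name: a row belonged to the module where its deposited gene symbol was one of the 38 symbols. Each of the 38 was found in each of the 4 deposited tables, with 1 row kept for each symbol. After rows without a name and further rows of a repeated symbol were dropped, the tables held 19782 genes for the knockout experiments and 17130 for the sort on CXCR4. The cultures held 18817 and the basal cells 26584. All 38 passed the filters on low values in every comparison. The 17 libraries fell into 12 groups of 1 or 2 libraries.

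The study follows the chemokine CXCL12 and its receptor CXCR4 between mammary epithelium and resident macrophages. Macrophages of virgin mice were sorted on F4/80 and CD11b after mechanical and enzymatic dissociation of the gland, a step that all groups shared. Of the knockout experiments, the LysM-Cre control had the genotype LysmCre+ and the LysM-Cre Cxcr4 knockout LysmCre+ with Cxcr4fl/fl, while the K8-Cre control was K8Cre+ and the K8-Cre Cxcl12 knockout K8Cre+ with Cxcl12fl/fl, each with 2 libraries. LysM-Cre acts in myeloid cells, so it removes Cxcr4 from the macrophages themselves, and K8-Cre acts in luminal epithelial cells, so there the macrophages keep their own alleles. Every one of these 8 libraries carried a Cre transgene, and the number of mice behind a library is not given in the labels. Wild type macrophages sorted further on surface CXCR4 gave 2 positive libraries and 1 negative library. Wild type macrophages cultured in RPMI with serum gave 1 library of untreated cells, 1 with recombinant CXCL12, 1 with GSK690693, an inhibitor of the kinase AKT, and 1 with both. P4, the Lin-CD24+CD29high basal fraction enriched for mammary stem cells, gave 1 K8Cre+ and 1 K8Cre+ Cxcl12fl/fl library. Mouse age and the doses and times of the agents are not given in the labels.

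Immediate early genes are transcribed within minutes of a stimulus without new protein synthesis, from promoters that serum response factor, ternary complex factors and CREB hold ready. Their products are mostly transcription factors of the AP-1 and EGR families and the feedback inhibitors that end the signal, such as the DUSP phosphatases and the mRNA decay factor ZFP36. Heat shock genes encode chaperones and are switched on when unfolded protein releases heat shock factor 1, which binds arrays of the unit nGAAn in their promoters. Both programs respond to growth factors and cytokines, and both are also known to start while tissue is being digested and sorted.

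The promoters of the members show which of them carry the letters of these factors. RefSeq windows on GRCm38.p6, running from 250 bases before to 50 after the annotated start, were matched for 31 members, 20 immediate early and 11 heat shock. A heat shock element of 2 units, GAANNTTC or TTCNNGAA on either strand, stood in the window of 9 of the 11 heat shock genes, of 3 of the 20 immediate early genes (Fosl2, Jun and Egr2) and of 4587 of all 27025 genes with a window. The 3-unit form, GAA, TTC and GAA in turn with 2 free bases between units, overlaps both 2-unit forms and stood in Hsph1, Hspe1 and Hspd1 and in 0.662% of genes. The exceptions among the heat shock genes with a window were Hspa5 and Dnajb1. Egr1, Egr3, Ier2, Myc, Hspa8, Hsp90aa1 and Hsp90ab1 were not matched. Hspa5 instead held the endoplasmic reticulum stress element, CCAAT and CCACG with 9 free bases between, which 0.137% of genes held. The CArG box, bound by serum response factor, stood in Egr2, Dusp5 and Zfp36 and in 1.81% of genes, and the cyclic AMP response element TGACGTCA in Dusp1 and Btg2 and in 2.03% of genes. A match of letters is a description and not a measured binding site, and a window without a match says only that these letters were not in it.

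The stretches upstream of 5 heat shock genes are printed as examples of the elements. No link between an element and the levels reported below was tested. Each runs 5′ to 3′ on the gene's own strand and ends at the base before the start of transcription, and capitals mark the heat shock elements, or in Hspa5 the endoplasmic reticulum stress element. They lie at chr17:34972157-34972316 and chr17:34959239-34959398 on the minus strand, chr5:149636337-149636416 on the minus strand, chr1:55088008-55088147 on the plus strand and chr2:34771930-34772089 on the plus strand.
Hspa1a: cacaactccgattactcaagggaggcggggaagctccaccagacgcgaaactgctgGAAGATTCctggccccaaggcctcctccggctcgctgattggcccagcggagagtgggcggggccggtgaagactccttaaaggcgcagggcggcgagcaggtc
Hspa1b: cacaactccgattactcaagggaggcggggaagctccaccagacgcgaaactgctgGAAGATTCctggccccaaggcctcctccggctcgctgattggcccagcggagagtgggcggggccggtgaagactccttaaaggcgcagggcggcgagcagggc
Hsph1: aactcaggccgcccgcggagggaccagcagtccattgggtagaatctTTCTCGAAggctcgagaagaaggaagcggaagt
Hspe1: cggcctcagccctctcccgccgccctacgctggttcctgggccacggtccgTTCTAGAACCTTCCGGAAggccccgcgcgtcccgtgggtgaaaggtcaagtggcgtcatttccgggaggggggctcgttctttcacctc
Hspa5: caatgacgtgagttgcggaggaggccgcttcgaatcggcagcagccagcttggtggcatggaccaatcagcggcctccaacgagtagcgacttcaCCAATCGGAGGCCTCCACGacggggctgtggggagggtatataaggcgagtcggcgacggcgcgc
Hspa1a and Hspa1b, which encode the stress-inducible HSP70, were identical at 247 of the 250 bases upstream (98.8%). They are near-identical copies on chromosome 17, so the authors' counting could split reads between them, and their separate levels are uncertain. Hspe1 and Hspd1 are read in opposite directions from a shared promoter, so the 3-unit element in the Hspe1 stretch is also the one in the window of Hspd1. In Hsph1 the 3-unit form lies after the start and is not in the printed stretch, which shows the 2-unit form.

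For the immediate early genes, the stretches of Dusp5, Zfp36 and Dusp1 show the elements of the signal pathways, with the CArG box in capitals in the first pair and the cyclic AMP response element in the last. They run 5′ to 3′ on the gene's own strand and lie at chr19:53529025-53529114 on the plus strand, chr7:28379239-28379328 on the minus strand and chr17:26508563-26508652 on the minus strand, ending 31, 11 and 91 bases before the start.
Dusp5: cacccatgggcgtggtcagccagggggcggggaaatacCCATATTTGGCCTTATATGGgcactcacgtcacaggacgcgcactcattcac
Zfp36: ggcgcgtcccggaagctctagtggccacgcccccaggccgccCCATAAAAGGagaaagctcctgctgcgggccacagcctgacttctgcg
Dusp1: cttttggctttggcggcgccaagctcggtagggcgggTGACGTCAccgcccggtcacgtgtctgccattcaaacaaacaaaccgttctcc
Dusp5 holds 2 CArG boxes that lie end to end, and Zfp36 and Dusp1 hold 1 element each.

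Levels in the macrophages are in CPM, reads scaled to a common library total. Depth was read from the smallest step between values: 1 CPM stood for 8.60 to 37.2 reads in the libraries of the knockout experiments, 23.2 to 28.8 reads in the CXCR4 sort and 14.3 to 29.04 reads in the cultures, so that 3 reads made 0.0806 to 0.349 CPM. For P4 it is unknown. The LysM-Cre controls held 819 and 318 CPM of the deleted gene Cxcr4, and the knockouts 232 and 140.4. In the sort, made on surface protein, the library labelled CXCR4-negative had 772 CPM of Cxcr4 mRNA, between the 632 and 875 CPM of the positive libraries. Cxcl12, deleted in luminal cells, had 11.7 and 149 CPM in the macrophages of the K8-Cre controls and 58.2 and 164 in those of the knockouts. In P4 it had 269.9 and 350.0 FPKM, a level per length of transcript and depth, and neither cell type is the one that K8-Cre is aimed at. Of 8 macrophage markers, 7 or 8 reached 1 CPM in every macrophage library, and all 8 basal markers reached 1 FPKM in both P4 libraries. Small RNA took 2.96% to 6.75% of the reads of the 4 knockout-experiment libraries numbered 1 and 15.2% to 19.3% of those numbered 2, so values within each number are given below. In bulk RNA, fewer cells of a type and less RNA per cell cannot be told apart. The tables were normalized separately, so levels set side by side across them are descriptions.

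Of the AP-1 genes, Fos and Fosb ranked 1 and 4 among the immediate early genes per kilobase of exon in the knockout experiments. The others ranked from 7 (Junb) to 13 (Jund). Per kilobase of exon, mean levels over the 8 libraries of the knockout experiments were 509 CPM for Fos and 285 for Fosb, whose products pair with JUN proteins, against 1224 for Hspa1b, 969 for Hspa1a and 399.8 for Zfp36. Egr3, a zinc finger factor downstream of growth factor signals, had 11.5 CPM per kilobase, the proto-oncogene Myc 10.8 and the growth arrest gene Gadd45a 5.74. Fos ranged from 767 to 1827 CPM over those 8 libraries, and Fosb, the most even of the 38 members, from 1435 to 2092 CPM. Fosl2, another FOS family subunit, ranged from 882 to 1515 CPM. Of the JUN subunits, Jun ranged from 377 to 934 CPM, Junb from 343 to 1022 and Jund, a subunit usually expressed without a stimulus, from 58.6 to 332. Atf3, a stress-induced relative that can pair with JUN, ranged from 303 to 657 CPM. The AP-1 genes other than Jund thus stayed within 3-fold in all 8 libraries.

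The early response factors varied more. Egr1, the first EGR factor to appear after a stimulus, ranged from 183 to 509 CPM, while Egr2 went from 3.86 to 63.2 and Egr3 from 7.96 to 78.4 CPM with the lowest value of all 3 in LysM-Cre Cxcr4 knockout 1. Ier2, a nuclear immediate early protein, ranged from 38.8 to 187 CPM, Ier3, a survival factor induced by NF-kB, from 8.84 to 182, and Ier5, which takes part in the control of heat shock factor 1, from 287 to 522. Klf6, a zinc finger factor, ranged from 852 to 1378 CPM. Among the feedback inhibitors, Dusp1, a phosphatase of p38 and JNK, ranged from 432 to 1119 CPM. Dusp2 and Dusp5, nuclear phosphatases of ERK, ranged from 63.7 to 211 and 73.8 to 419.9 CPM, and Zfp36 from 940.4 to 1945 CPM. Dusp1, Dusp2, Dusp5 and Zfp36 were each higher in the library numbered 1 than in that numbered 2 of every group. So were Atf3, Ier2, Gadd45b, Hspa5, Hsp90ab1, Hspd1 and Dnajb1, while Fosb and Btg2 were lower in this way.

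Genes of growth arrest and survival spanned the widest range of the module. Mcl1, which blocks apoptosis, ranged from 875 to 1461 CPM and the antiproliferative genes Btg1 and Btg2 from 481 to 1298 and 541 to 854 CPM. Gadd45b, an activator of p38 signalling, ranged from 50.9 to 307 CPM and Myc from 7.56 to 45.7. Gadd45a ranged from 0.177 to 34.01 CPM, a 192-fold span set by K8-Cre control 1, the shallowest library.

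Loss of Cxcr4 in myeloid cells was compared first. No immediate early or heat shock gene passed in limma's test, which counts a gene as changed at a Benjamini-Hochberg adjusted p under 0.05 over all 17275 genes, and 0 of the 38 had an unadjusted p under 0.05. Over all genes 0 rose and 1 fell (0.00579%), and 374 (2.16%) and 201 (1.16%) had an unadjusted p under 0.05 in these directions. The 1 that fell was Lyz2, the site of the LysM-Cre insertion (log2 difference -6.47). The genotype LysmCre+, given for both groups, does not state the number of Cre copies. Loss of Cxcr4 and the lower Lyz2 cannot be told apart in this comparison. The median log2 difference, knockout minus control on log2(CPM + 1), was -0.25 over the immediate early genes, with 8 of 24 above 0. It was -0.27 over the heat shock genes, with 1 of 14 above 0, and 0.14 over all genes tested. The heat shock values were -0.58 in the libraries numbered 1 and -0.08 in those numbered 2, and the immediate early values -0.55 and 0.03. Without LysM-Cre control 1 the heat shock median was 0.10, and without control 2 it was -0.74.

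The largest differences were in the EGR factors and rested on 1 library. Egr2 had 56.5 and 60.6 CPM in the LysM-Cre controls and 3.86 and 62.8 in the Cxcr4 knockouts, and Egr3 had 68.8 and 50.2 and 7.96 and 64.6. In both genes knockout 1 was far below the other 3 libraries, which lay close together. The log2 difference was -1.76 (SE 0.91, 95% interval -3.55 to 0.04) for Egr2 and -1.30 for Egr3. Egr1, with 509 and 372 CPM in the controls and 183 and 413 in the knockouts, was also lowest in knockout 1 and had a log2 difference of -0.66. Without knockout 1 the differences of Egr2 and Egr3 were 0.10 and 0.13. Junb had 1022 and 858 CPM in the controls and 439 and 648 in the knockouts, groups that did not overlap, with a log2 difference of -0.81 (SE 0.45, 95% interval -1.70 to 0.08). Ier5 (522 and 318 against 287 and 309.8 CPM) and Hspa8 were the other members whose groups did not overlap. All 3 were lower in the knockout, a pattern that 8.78% of all genes showed, and 0 members showed the opposite one, which 16.7% of all genes showed. Both shares include genes of few reads, and shares at the level of the members were not taken.

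Other members of the AP-1 and feedback groups overlapped between the genotypes. Fos had 1138 and 1277 CPM in the controls and 767 and 1213 in the knockouts, with a log2 difference of -0.32 (SE 0.40, 95% interval -1.12 to 0.48). Jun had 934 and 390.5 CPM and 377 and 455, a log2 difference of -0.55. Dusp1 had 1119 and 661 CPM and 819.6 and 622, a difference of -0.27 on the log2 scale. In all 3 genes the 2 libraries of at least 1 group lay further apart than the group means did. Dusp5 had 289 and 98.1 CPM in the controls and 419.9 and 112 in the knockouts, Myc 40.6 and 20.6 and 45.7 and 28.2, and Klf6 852 and 1378 and 1213 and 1360.0. Their log2 differences, the highest of the module, were 0.36, 0.30 and 0.25, none of which kept its sign in every fit that left out 1 library.

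The heat shock genes split the controls. Hspa1a had 4314 and 773 CPM in the LysM-Cre controls and 1409 and 976 in the Cxcr4 knockouts, and Hspa1b had 4194 and 934 and 1373 and 1009. Control 1 was far above the other 3 LysM-Cre libraries in both, and control 2 was below both knockouts. The log2 differences were -0.64 (SE 0.42, 95% interval -1.48 to 0.20) and -0.75 (SE 0.40, 95% interval -1.54 to 0.04). Without control 2, Hspa1a and Hspa1b passed (log2 differences -1.88 and -1.83, limma adjusted p = 0.0115 and 0.0144), together with 148 other genes, and without control 1 they were 0.60 and 0.33. Hspa8, the constitutive HSP70 of the cytosol, had 1399.8 and 924 CPM in the controls and 806 and 852 in the knockouts, a log2 difference of -0.46. Hsp90aa1, the inducible HSP90, had 1327 and 914 and 1059 and 791 CPM, a difference of -0.27.

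Loss of Cxcl12 in luminal cells was compared next in the macrophages. No member passed (limma, adjusted p under 0.05) and 0 of the 38 had an unadjusted p under 0.05, while 0 of all 17275 genes passed in either direction (0%), and 415 higher (2.4%) and 76 lower (0.44%) had an unadjusted p under 0.05. The median log2 difference was -0.14 over the immediate early genes, with 9 of 24 above 0, and 0.08 over the heat shock genes, with 11 of 14 above 0, beside 0.36 over all genes. The immediate early median was -0.03 in the libraries numbered 1 and -0.21 in those numbered 2. The heat shock median was -0.11 in the libraries numbered 1 and 0.28 in those numbered 2, and with median-ratio scaling it was -0.13.

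The highest differences came from genes that were low in 1 control library. Gadd45a had 0.177 and 10.02 CPM in the K8-Cre controls and 34.01 and 9.72 in the Cxcl12 knockouts, with a log2 difference of 2.43 (SE 1.79, 95% interval -1.13 to 5.98). Hspb1, the small heat shock protein HSP27, had 0.759 and 11.6 CPM and 9.33 and 21.7, a log2 difference of 1.70, and Ier3 had 8.84 and 26.4 and 74.2 and 25.9, a difference of 1.45. Without K8-Cre control 1 the 3 differences were 0.81, 0.28 and 0.72. In all 3 genes K8-Cre control 1 was the lowest of the 4 libraries, and the value of Gadd45a there was below the 0.349 CPM of 3 reads. At the other end, Ier2 had 176 and 75.6 CPM in the controls and 89.7 and 50.5 in the knockouts, a log2 difference of -0.77 (SE 0.72, 95% interval -2.20 to 0.67). Egr3 had 78.4 and 56.1 CPM and 31.5 and 48.9, a log2 difference of -0.74, and Fos had 1827 and 1151 and 1191 and 1022, a difference of -0.39. Fosb, Junb, Egr3 and Dnajb1 were lower in both knockout libraries than in both controls, as were 8.03% of all genes, and 0 members were higher in this way, against 20.4% of all genes. These shares include genes of few reads, and 37.4% of all entries were at 0 in K8-Cre control 1, the shallowest library. The median over all genes was 0.03 without that library and 0.14 for genes of at least 10 CPM on average. Shares at the level of the members were not taken.

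Egr1 and the HSP70 genes had smaller differences. Egr1 had 298 and 432 CPM in the K8-Cre controls and 304 and 441 in the Cxcl12 knockouts, and Hspa1a had 2827 and 4398 and 2344 and 5960.0. The log2 differences were 0.03 (SE 0.49, 95% interval -0.94 to 1.00) for Egr1, 0.08 (SE 0.42, 95% interval -0.75 to 0.92) for Hspa1a and 0.09 (SE 0.40, 95% interval -0.69 to 0.88) for Hspa1b. Jun had 795 and 577 CPM in the controls and 633 and 495 in the knockouts, Dusp1 991 and 579 and 819 and 432, and Hspa8 1869 and 1217 and 1521 and 1199.7, with log2 differences of -0.28, -0.35 and -0.16. Hsp90aa1 had a difference of 0.15 on this scale. The intervals of Egr1, Hspa1a and Hspa1b reach beyond 1.5-fold in both directions, so differences of that size were not detectable with 2 libraries a group.

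The difference between the knockouts was tested as 1 contrast, Cxcr4 effect minus Cxcl12 effect. No member passed in limma, and 0 of all genes rose and 1 fell (0.00579%). The median over the heat shock genes was -0.31 and over the immediate early genes -0.09 (0.01 with median-ratio scaling), beside -0.22 over all genes. The immediate early median had opposite signs within the library numbers, -0.41 with 7 of 24 above 0 in those numbered 1 and 0.36 with 21 of 24 in those numbered 2, and the heat shock median was -0.45 and -0.25. The lowest values were -2.75 for Gadd45a, -1.97 for Hspb1 and -1.54 for Egr2, which carry the single low libraries described above, and the highest 0.54 for Fosb, 0.42 for Zfp36 and 0.29 for Ier2. Fosb had 1472 and 2069 CPM in the LysM-Cre controls, 1849 and 2092 in the Cxcr4 knockouts, 1826 and 1975 in the K8-Cre controls and 1435 and 1514 in the Cxcl12 knockouts, and Zfp36 had 1709 and 1189.6, 1945 and 1329.7, 1574 and 1098 and 1310.3 and 940.4 in this order. For the genes reported in every comparison it was 0.07 for Fos, -0.27 for Jun, -0.69 for Egr1 and 0.08 for Dusp1. It was -0.72 for Hspa1a, -0.84 for Hspa1b, -0.30 for Hspa8 and -0.41 for Hsp90aa1.

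The median heat shock difference was larger between the Cre lines than with either knockout, a comparison of medians with no test. In this comparison, chosen after the values were seen, the 4 K8-Cre libraries were set against the 4 LysM-Cre libraries and 3 cytosolic chaperones were higher in the K8-Cre line. Of all 17275 genes 7 were higher (0.0405%) and 1 was lower (0.00579%), and 3 of the 7 were heat shock members: Hsph1, Hspa1b and Hsp90aa1. The median log2 difference was 1.18 over the heat shock genes, with 12 of 14 above 0, against -0.09 over the immediate early genes, with 11 of 24 above 0, and 0.20 over all genes. At an unadjusted p under 0.05, 8 heat shock genes and 2.52% of all genes were higher, and 3 immediate early genes and 1.2% of all genes were lower. Line, mice and any day of sorting cannot be told apart here. The summed macrophage markers, which include Lyz2, the site of the LysM-Cre insertion, were also lower in 3 of the 4 LysM-Cre libraries.

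Hsph1 encodes HSP110, a nucleotide exchange factor that helps HSP70 to take aggregates apart. It had 739.6 and 257 CPM in the LysM-Cre controls and 268 and 250.4 in the Cxcr4 knockouts, against 1067 and 1539 in the K8-Cre controls and 1229 and 1918 in the Cxcl12 knockouts. All 4 K8-Cre libraries were above all 4 LysM-Cre libraries. The log2 difference was 2.06 (SE 0.31, 95% interval 1.44 to 2.68) with a limma adjusted p of 2.02e-05, and it was 1.36 within the libraries numbered 1 and 2.76 within those numbered 2. Its promoter stretch is among those printed above.

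Hspa1b had 4804 and 4729.6 CPM in the K8-Cre controls and 4089.8 and 6309.9 in the Cxcl12 knockouts, beside the LysM-Cre levels given above. Only LysM-Cre control 1 reached the K8-Cre range. The log2 difference was 1.69 (SE 0.28, 95% interval 1.13 to 2.24), adjusted p = 0.000159, with 0.89 and 2.49 within the libraries numbered 1 and 2. Its twin Hspa1a had 2827 and 4398 and 2344 and 5960.0 CPM in these groups and did not pass (log2 difference 1.31, adjusted p = 0.0533); within the libraries numbered 1 its difference was 0.06. With both copies summed the log2 difference was 1.52 and passed.

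Hsp90aa1 had 2289.9 and 2167 CPM in the K8-Cre controls and 2285 and 2661 in the Cxcl12 knockouts. The groups did not overlap, since the highest LysM-Cre library had 1327 CPM. Its log2 difference was 1.22 (SE 0.27, 95% interval 0.68 to 1.77), adjusted p = 0.0453, with 0.95 and 1.497 within the 2 library numbers. Hsp90ab1, the constitutive form, had 1675 and 509.6, 1044 and 671, 1058 and 821 and 1078 and 905 CPM in the same order of groups and a log2 difference of 0.13 (SE 0.30, 95% interval -0.48 to 0.73). The 2 forms were not tested against each other.

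**Figure D1:**
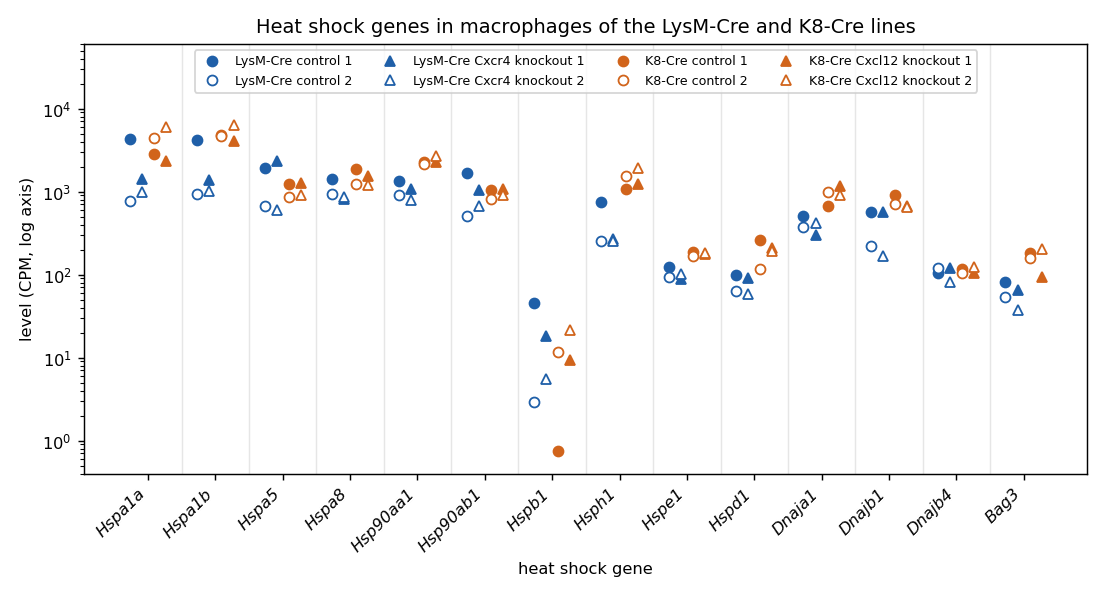
Levels of the 14 heat shock genes in the 8 macrophage libraries of the knockout experiments, in CPM on a log axis. Blue points are LysM-Cre libraries and orange points K8-Cre libraries, circles are controls and triangles knockouts, and filled and open points are libraries 1 and 2. For Hsph1, Hsp90aa1, Hspe1, Hspd1, Dnaja1, Dnajb1 and Bag3 every orange point lies above every blue point. For Hspa1a, Hspa1b, Hspa5, Hspa8, Hsp90ab1, Hspb1 and Dnajb4 the colours overlap.

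For 7 of the 14 heat shock genes all K8-Cre libraries were above all LysM-Cre libraries, against 1.97% of all genes tested, and for 0 of the 24 immediate early genes. Besides Hsph1 and Hsp90aa1 these were the HSP70 helpers Dnaja1 (300.2 to 1155 CPM over the 8 libraries) and Dnajb1 (167 to 907 CPM), the HSP70 nucleotide exchange factor Bag3 (82.4 and 53.6 and 65.3 and 37.3 CPM in the LysM-Cre groups, 181 and 158 and 94.001 and 202 in the K8-Cre groups) and the mitochondrial chaperonins Hspe1 (87.9 to 187 CPM) and Hspd1 (57.9 to 261 CPM). Their log2 differences were 1.23, 1.14, 1.40, 0.81 and 1.29, and none of the 5 passed. Hspa5, the HSP70 of the endoplasmic reticulum, had 1906 and 661 and 2339 and 597 CPM in the LysM-Cre groups and 1240.2 and 863 and 1282 and 904 in the K8-Cre groups. It was higher in library 1 than in library 2 of every group and its difference between lines was -0.13 (SE 0.31, 95% interval -0.74 to 0.49). Hspb1 and the co-chaperone Dnajb4 had log2 differences of -0.53 and 0.09, and Hspa8 one of 0.56 (SE 0.28, 95% interval -0.01 to 1.12).

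The heat shock median was above 0 between the controls and between the knockouts. Between the controls alone the median over the heat shock genes was 0.94, with 11 of 14 above 0, and between the knockouts alone 1.27, with 13 of 14 above 0. Between the knockouts Hsph1 and Hspa1b passed (limma adjusted p = 0.00074 and 0.00358; over all genes 4 were higher, 0.0232%). There 8 heat shock genes were higher at an unadjusted p under 0.05, where 1.44% of all genes were higher and 0.614% lower. Between the controls no member passed, against 1 gene of all higher (0.00579%), and the lowest adjusted p of a member was 0.484, for Hsph1. There 7 heat shock genes were higher and 3 immediate early genes lower at an unadjusted p under 0.05, against 3.04% and 2.58% of all genes. The median was 0.74 within the libraries numbered 1, with 10 of 14 above 0, and 1.40 within those numbered 2, with 14 of 14. It stayed between 0.76 and 1.35 when each library was left out.

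The calls themselves rested on the setting and on single libraries. With genes of at least 10 CPM, with quantile normalization or with no mean-variance trend, 0 members passed, and with the replicate number as a block 5 did. Without K8-Cre control 1 or without K8-Cre control 2, 0 members passed, without LysM-Cre Cxcr4 knockout 2 only Hsph1 did, and without LysM-Cre control 1 the count was 6. Hsp90aa1 passed in no other fit that left out 1 library. Without LysM-Cre control 2 the difference of Hspa1a was 0.69 and without control 1 it was 1.93. The macrophage markers summed to 12582, 4396, 2871 and 1986 CPM in LysM-Cre control 1, control 2, knockout 1 and knockout 2, and to 6331 to 9729 CPM in the K8-Cre libraries. That sum holds Lyz2, the site of the LysM-Cre insertion. Lyz2 was the only gene to pass in the Cxcr4 knockout, with a log2 difference of -6.47. It was also among the genes that passed between the lines, at 3.56. The sums of the LysM-Cre libraries therefore do not measure macrophage content alone. LysM-Cre control 1 had both the highest marker sum and the highest summed heat shock level of its line, 17084 CPM against 5902 to 9548 in the other 3 libraries, although Hspa5 and Dnajb4 were higher in knockout 1. The part of the macrophage content in the line difference was not tested.

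The immediate early genes most unlike between the lines were lower in K8-Cre. Ier3 had 182 and 28.4 CPM and 75.9 and 63.1 in the LysM-Cre groups against 8.84 and 26.4 and 74.2 and 25.9 in the K8-Cre groups, a log2 difference of -1.40 (SE 0.63, 95% interval -2.65 to -0.15). Jund had 332 and 227 and 275 and 206 CPM in the LysM-Cre groups and 58.6 and 215 and 163 and 139 in the K8-Cre groups, and Junb had 372 and 472 and 369 and 343 in the K8-Cre groups. Their log2 differences were -0.97 and -0.87. None of the 3 passed (limma adjusted p = 1 for each). The factors Fos, Jun and Egr1 had differences of 0.23, 0.30 and 0.07 and Dusp1 one of -0.22. Egr2 had a difference of 0.80 (SE 0.64, 95% interval -0.47 to 2.07), with 1.91 within the libraries numbered 1 and -0.30 within those numbered 2. Without LysM-Cre control 1 the difference of Ier3 was -0.74, and without K8-Cre control 1 that of Jund was -0.51.

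**Figure D2:**
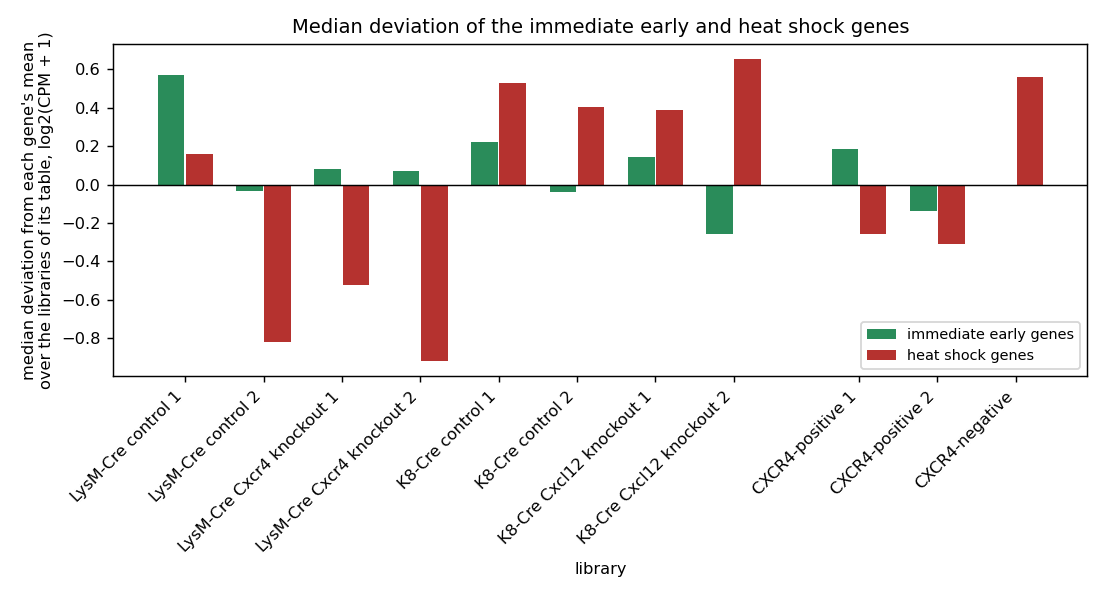
Median deviation of the 24 immediate early genes (green) and the 14 heat shock genes (red) in each macrophage library, each gene taken from its mean over the libraries of its own table, on log2(CPM + 1). The red bars are below 0 in 3 of 4 LysM-Cre libraries and above 0 in all 4 K8-Cre libraries, and above 0 in the CXCR4-negative library alone within the sort.

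Genes around the module, in 4 lists of 96 genes, did not pass in any of these comparisons. Between the lines, 27 other chaperones and chaperone partners had a median log2 difference of 0.25, with 18 above 0. The highest were the small heat shock gene Hspb6 (2.46) and the HSP110 relative Hspa4l (2.28), and the lowest the co-chaperone Dnajb2 (-1.47) and the ubiquitin gene Ubb (-1.41). Of 33 other immediate early genes 11 were above 0 (median -0.20), of 14 upstream kinases and factors 6 (median -0.08) and of 19 endoplasmic reticulum stress genes 9 (median -0.11). In the Cxcr4 knockout the medians of these lists were 0.26, -0.02, 0.19 and 0.29, and in the Cxcl12 knockout 0.18, 0.00, 0.46 and -0.11, with 0 of their genes past the threshold.

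The sort on CXCR4 set 2 positive libraries against 1 negative library of wild type macrophages. Heat shock chaperones were lower in both CXCR4-positive libraries than in the library labelled CXCR4-negative for 13 of 14 genes, and Hspa5 was the exception. The median log2 difference, positive minus negative, was -0.84 over the heat shock genes, 0.00 over the immediate early genes (-0.13 with quantile normalization and 0.16 with median-ratio scaling) and -0.16 over all genes. With 1 residual degree of freedom, 0 members and 0 of all 17130 genes (0%) passed in limma in either direction. At an unadjusted p under 0.05 there were 1101 higher (6.43%) and 1583 lower (9.24%) genes, among them 4 and 7 members. A pattern of both positive libraries below the negative one was shown by 43.9% of all genes, so 13 of 14 is to be read against that share, and 30.6% showed the reverse.

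Whether a member passed depended on the filter. Where a gene had to reach 1 CPM in 2 of the 3 libraries, a setting added after the values were seen, 729 genes were higher (5.06%) and 490 lower (3.4%), and 7 members passed: Dnaja1, Hsph1, Hspe1, Dnajb1, Hspd1 and Btg1 lower and Hspa5 higher. With genes of at least 10 CPM on average, an alternative of the plan, the same 7 members passed. The log2 differences are the same in all 3 settings, and the number of genes tested and the estimated spread differ. The negative group is 1 library and adds no spread of its own, so in every setting the test takes the spread from the 2 positive libraries and assumes that the lone library varies like them.

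Dnaja1, an HSP40 that hands clients to HSP70, had 503 and 225 CPM with CXCR4 on the surface and 1530.1 without it, a log2 difference of -2.18 (SE 0.68, 95% interval -4.77 to 0.40). Its adjusted p was 0.342 in the planned test (limma). Hsph1 had 723 and 459 against 1941 CPM, a log2 difference of -1.75 (SE 0.41, 95% interval -3.32 to -0.18). Hspe1 and Hspd1, which form the folding chamber of mitochondria, had 107 and 65.7 against 298 and 75.3 and 66.8 against 170.2 CPM. Their differences were -1.81 and -1.25 on the log2 scale. Dnajb1, the HSP40 most closely tied to the stress-inducible HSP70, had 423 and 304 against 880.1 CPM, a log2 difference of -1.29. In these 5 genes the negative library stood at least 2-fold above the higher of the positive libraries.

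The HSP70 and HSP90 genes had smaller differences. Hspa1a had 3944 CPM in the negative library and 2376 and 2226 in the positive ones, and Hspa1b had 4578 and then 2283 and 2347. The log2 differences were -0.78 (SE 0.24, 95% interval -1.69 to 0.14) and -0.98 (SE 0.24, 95% interval -1.90 to -0.07). Hspa8 had 1048 and 977 against 1564 CPM (-0.63 on the log2 scale) and Hsp90aa1 1236 and 1688 against 2554 CPM (-0.82). Hsp90ab1, Hspb1, Dnajb4 and Bag3 had log2 differences from -0.86 to -0.40. Hspa5 had 868 CPM in the negative library and 1743 and 2127 in the positive ones, a log2 difference of 1.15 (SE 0.26, 95% interval 0.17 to 2.12). Both positive libraries held at least 2-fold more of it.

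Other genes of the endoplasmic reticulum stress response lay on the side of Hspa5. Of 18 measured, 16 were above 0 and the median was 0.55, with Dnajb9, a co-chaperone of Hspa5, at 1.38 and the disulfide isomerase Pdia4 at 1.05. The lowest were the stress factor Ddit3 at -1.01 and Creld2 at -0.50. Of 26 other chaperones 6 were above 0 (median -0.50), from Hspa14 at -1.74 and Dnajc2 at -1.73 to the mitochondrial HSP70 Hspa9 at 0.89. None of these genes passed in limma, as in the table as a whole.

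**Figure D3:**
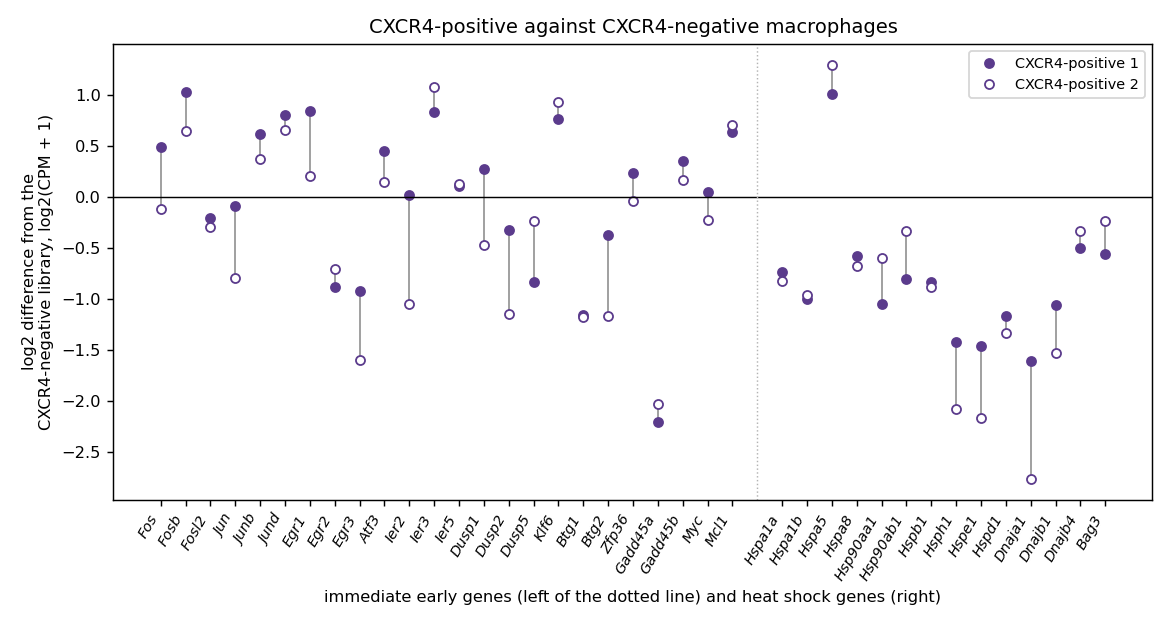
Log2 difference of each CXCR4-positive library from the CXCR4-negative library for the 38 genes, on log2(CPM + 1), with filled points for positive library 1 and open points for positive library 2. To the right of the dotted line all heat shock genes but Hspa5 lie below 0 in both libraries, whereas the immediate early genes on the left lie on both sides.

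Immediate early genes went both ways in the sort. Fosb had 1743 CPM in the negative library and 3545 and 2722 in the positive ones, a log2 difference of 0.83, and Ier3 had 39.1 and then 70.5 and 83.7, a difference of 0.96. Klf6 had 1563 and 1761 CPM against 923, and its log2 difference of 0.85 was followed by those of Jund (0.73) and Mcl1 (0.67). On the other side Gadd45a had 6.91 and 7.91 CPM against 35.4, a log2 difference of -2.11 (SE 0.40, 95% interval -3.64 to -0.58), and Egr3 had 28.1 and 17.3 against 54.1, a difference of -1.26. Btg1, which slows proliferation, had 557 and 549 CPM against 1245, a log2 difference of -1.17 (SE 0.17, 95% interval -1.82 to -0.52). Groups did not overlap for 10 of the 24 immediate early genes that were higher and 9 that were lower in the positive libraries. Of all genes 30.6% were higher and 43.9% lower in this way, and the counts were not tested against these shares.

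Among the early signal genes, Fos had 1124 CPM in the negative library and 1574 and 1034 in the positive ones, so the negative library lay between the positive ones, as it did for Dusp1 (631 CPM, with 763 and 456 in the positive ones). Jun had 867 CPM in the negative library and 817 and 499 in the positive ones, and Egr1 404 and then 722 and 464. The log2 differences were 0.18, -0.10, -0.44 and 0.52. Among 33 other immediate early genes 23 were above 0 (median 0.41), with the AP-1 subunit Fosl1 at 3.5 and the cytokine signal inhibitor Socs3 at 2.04, while the orphan nuclear receptors Nr4a1 and Nr4a2 were at -1.41 and -1.95. Of 15 upstream kinases and factors 6 were above 0 (median -0.47), and Hsf1, the heat shock factor, was at -1.31, next to the ternary complex factor Elk1 at -1.32. None passed.

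Markers of other cell types differed between the libraries of this sort. Summed over 8 dendritic cell markers the negative library had 866 CPM against 322 and 234 in the positive libraries, and over the 5 measured eosinophil markers 151 CPM against 5.66 and 3.93, with Epx at 0 in both positive libraries. The 8 macrophage markers summed to 7051 CPM in the negative library and 9881 and 11679 in the positive ones. Fibroblast markers (95.7 against 197 and 450 CPM) and B cell markers (169 against 247 and 191.5 CPM) were also lower in the negative library. T and NK cell, endothelial and basal mammary sums were highest there, and neutrophil and epithelial sums lay between. Small RNA took 15.2% of its reads and 11.2% and 11.5% of those of the positive libraries. The part of all these in the chaperone differences was not tested. With each positive library alone the median over the heat shock genes was -0.92 and -0.85, and the negative library cannot be left out.

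Levels in culture differed from those in freshly sorted cells for 7 members. Egr1 had 825 to 972 CPM in the 4 cultures and at most 722 in the 11 freshly sorted macrophage libraries, Egr2 76.8 to 122 against at most 76.4, Egr3 98.97 to 151 against at most 78.4 and Myc 67.2 to 133 against at most 52.2. Fos had 368 to 483 CPM in culture and at least 767 in fresh cells, Atf3 182 to 278 and at least 303, and Hspe1 6.54 to 26.9 and at least 65.7. All 3 EGR factors were thus higher in every culture while Fos was lower. Every cultured library was higher for 7.04% of all genes and lower for 3.94%, and the comparison crosses tables that were normalized separately. The 6 endothelial markers summed to 1505 to 2027 CPM in culture and 1.63 to 173 CPM in fresh macrophages, and their part was not tested.

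Agents in culture were compared as 1 library against 1, so no test was made and ratios carry no error. They are log2 ratios with 0.1 CPM added, and at least 2-fold is the size reported. The AKT inhibitor against untreated cells moved 25.3% of all genes at least 2-fold higher and 27.1% lower, and 1 member higher and 2 lower. With CXCL12 in both wells it moved 19.2% higher and 43% lower, and 2 members higher and 5 lower. CXCL12 against untreated cells moved 24.3% and 22.2% of all genes and 0 members. With the inhibitor in both wells CXCL12 moved 20% and 40.1% of all genes, and 1 member higher and 3 lower. Each count of members was below these shares of all genes, which include genes of few reads. Over genes of at least 10 CPM in the higher library, the inhibitor moved 19.9% higher and 16.4% lower without CXCL12. With CXCL12 it moved 23.5% and 24.2% of those genes. CXCL12 moved 11.967% and 14.333% of them without the inhibitor, and 21.4% and 27.5% with it. The member counts were below these shares too, and shares at the level of the members were not taken. With quantile normalization the inhibitor in the presence of CXCL12 moved 26.9% of genes higher and 31.7% lower, and CXCL12 in the presence of the inhibitor 28.3% and 31.6%; the members past 2-fold were the same but for Gadd45a, which was then under 2-fold with the inhibitor.

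The mitochondrial chaperonin Hspe1 was the only member at least 2-fold lower with the inhibitor in both pairs. It had 25.5 CPM in untreated cells and 8.59 with the inhibitor, and 26.9 with CXCL12 and 6.54 with both, log2 ratios of -1.56 and -2.02. Of all genes tested in both pairs 12.7% were lower in this way and 5.54% higher. Its partner Hspd1 had 82.2, 45.9, 109 and 28.04 CPM in the same order, log2 ratios of -0.84 and -1.96. Hsph1, with 788, 413, 786 and 503 CPM, was lower in both pairs without reaching 2-fold in either (-0.93 and -0.64). Dnajb4 had 323 CPM in untreated cells and 107 with the inhibitor, a log2 ratio of -1.59, and -0.43 in the other pair.

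The HSP70 genes of the cytosol and Hsp90aa1 stayed under 2-fold in culture. Hspa1a had 1743, 2004, 1797 and 1589.8 CPM in untreated, inhibitor, CXCL12 and combined wells, and Hspa1b 1219, 1544, 1209.8 and 1105. Hspa8 went from 1224 to 1722 CPM and Hsp90aa1 from 829.6 to 1402 CPM over the 4 wells. The log2 ratios of the inhibitor were between -0.57 and 0.49 for these 4 genes.

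Of the AP-1 genes Jun, Jund and Fosb were higher with the inhibitor in both pairs, and only Jund reached 2-fold, in 1 of them. Jun had 261 CPM untreated and 460.0 with the inhibitor, and 292 with CXCL12 and 509.8 with both, log2 ratios of 0.81 and 0.80. Jund had 49.3, 80.1, 76.7 and 173 CPM in this order, log2 ratios of 0.70 and 1.17, with the second above 2-fold. Fosb had ratios of 0.56 and 0.53. Fos had 415, 424, 483 and 368 CPM and ratios of 0.03 and -0.39. Egr1 stayed between 825 and 972 CPM and Dusp1 between 698 and 753 CPM in all 4 wells. Ier3 had 106, 152, 92.4 and 208 CPM, a log2 ratio of 0.52 without CXCL12 and 1.17 with it. Dusp2 had 67.2, 65.2, 105 and 28.1 CPM, ratios of -0.04 and -1.90. Hspb1 had 49.96, 39.9, 31.1 and 4.81 CPM, ratios of -0.32 and -2.67, so Dusp2 and Hspb1 were both lowest in the well with both agents.

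**Figure D4:**
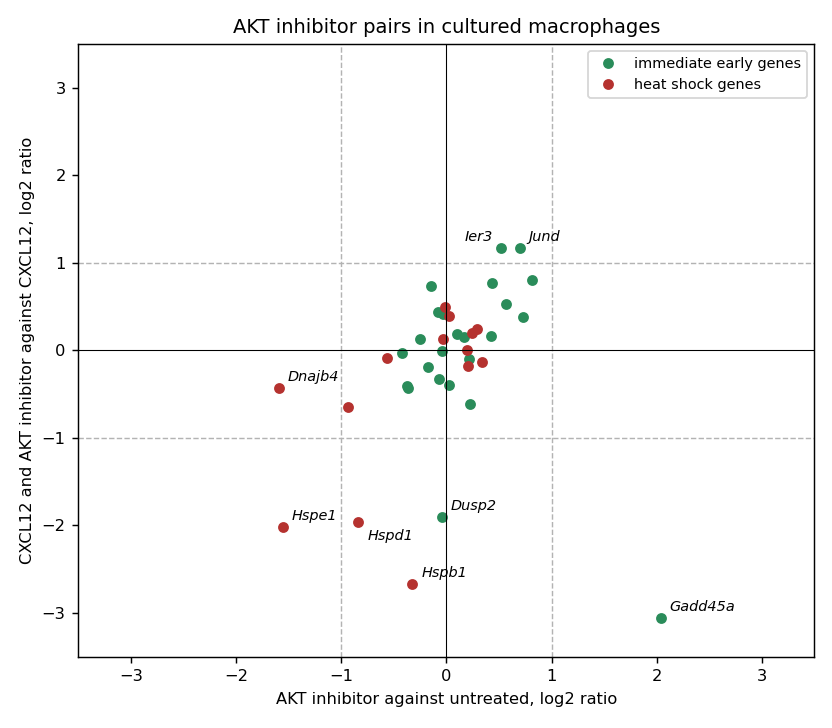
Log2 ratios of the AKT inhibitor in cultured macrophages, without CXCL12 on the x axis and with CXCL12 on the y axis, 1 point a gene (green immediate early, red heat shock) and dashed lines at 2-fold. Hspe1 is the only gene beyond the dashed lines at the lower left, and Gadd45a lies at the lower right.

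For CXCL12, the immediate early genes had a median log2 ratio of 0.17 without the inhibitor, with 17 of 24 above 0, and 0.15 with it, with 16 of 24 above 0, beside 0.01 and -0.37 over all genes. Over genes of at least 10 CPM in the higher library the all-gene medians were -0.03 and -0.04. In the well with both agents 31.1% of all entries were at 0, against 12.6% to 19.8% in the other wells. Fos had a ratio of 0.22 and then -0.20, Jun of 0.16 and 0.15, Egr1 of 0.24 and -0.08 and Dusp1 of -0.10 and -0.07. None of the 38 was at least 2-fold higher or lower with CXCL12 in both pairs, where 4.63% of genes were higher and 9.11% lower. The heat shock genes had medians of -0.08 and -0.26. Of the genes around the module, 1 of 33 other immediate early genes was at least 2-fold higher with CXCL12 alone, Cited2 (1.43), and 0 were lower.

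In P4 basal cells the FPKM scale is per length, so genes can be compared within a library. Among the most abundant members were Fos, with 761 FPKM in the K8-Cre control and 1287 in the Cxcl12 knockout, and Hspa8, with 894 and 1099. Fosb had 575 and 1114 FPKM, Hspa1a 353 and 432, Hspa1b 447 and 439.7, and Hsp90aa1 634 and 561. The constitutive Hspa8 was thus above both inducible HSP70 copies here, and Hspb1 reached 135 and 164 FPKM.

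Between the P4 libraries 1 member, Gadd45b, was at least 2-fold apart, with 19.97 FPKM in the control and 49.2 in the Cxcl12 knockout (log2 ratio 1.26 with 1 FPKM added). Over all 13146 genes 13.5% were at least 2-fold higher and 9.68% lower. Fosb was next at 0.95, then Myc (105 and 196 FPKM) at 0.89, Btg2 (64.8 and 121 FPKM) at 0.88, Atf3 (74.4 and 133 FPKM) at 0.83 and Fos at 0.76. Egr1 had 337 and 521 FPKM, Jun 147 and 168, and Dusp1 192 and 160.3. The lowest ratios were -0.87 for Dusp5 (54.1 and 29.1 FPKM), -0.51 for Gadd45a (20.8 and 14.3) and -0.46 for Ier2 (62.1 and 44.9). The heat shock genes ran from -0.38 to 0.69, with Dnajb1 (160.1 and 258.6 FPKM) the highest. The median log2 ratio was 0.25 over the immediate early genes, with 14 of 24 above 0, 0.09 over the heat shock genes, with 8 of 14 above 0, and 0.03 over all genes. Of 32 other immediate early genes 2 were at least 2-fold higher, Nr4a1 (1.25) and Socs3 (1.07), and 1 was lower, Egr4, which had under 10 FPKM. Of 27 other chaperones 0 were higher, and those at least 2-fold lower included Dnajc2, Hspb6, Hspbp1 and St13. Macrophage markers summed to 20.4 and 32.0 FPKM and basal markers to 5144 and 6989 FPKM in the control and the knockout, and their part was not tested.

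**Figure D5:**
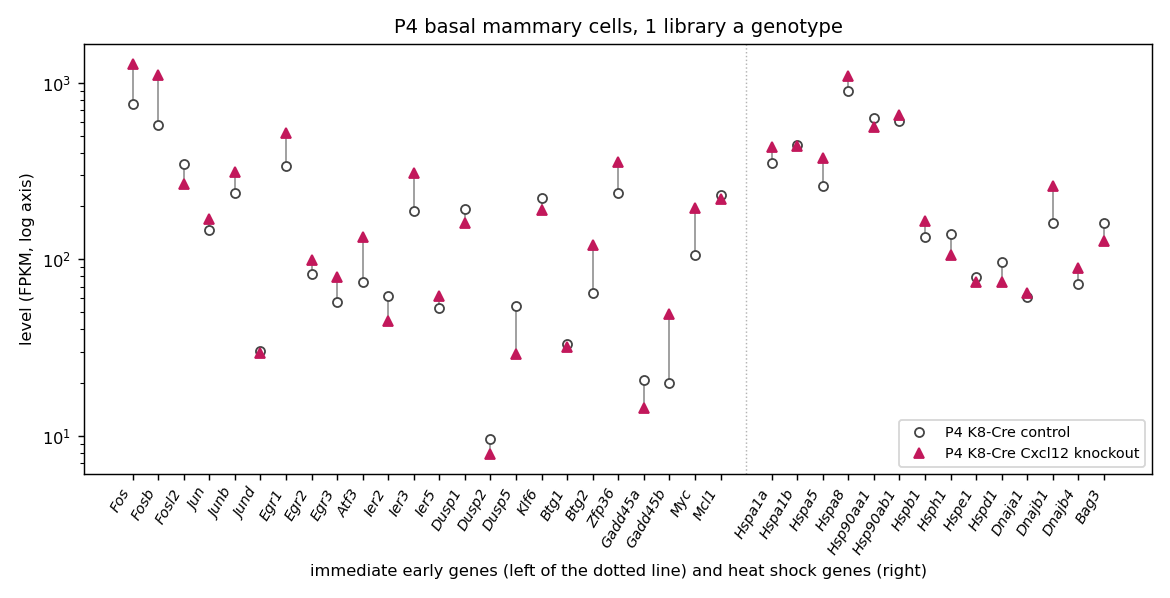
Levels of the 38 genes in the 2 P4 libraries, in FPKM on a log axis, with open circles for the K8-Cre control and triangles for the K8-Cre Cxcl12 knockout. The triangles of Fos, Fosb, Atf3, Btg2, Gadd45b and Myc lie above the circles and those of Dusp5 and Ier2 below. Right of the dotted line, Dnajb1 and Hspa5 are the heat shock genes furthest apart, both under 2-fold.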

How the data were processed

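RNA-seq of mouse mammary macrophages and P4 basal cells was read from 4 deposited tables. Per the labels' protocols, total RNA was freed of ribosomal RNA and made into libraries on an Apollo 324. The submitters' processing notes name STAR 2.7.8a, Partek and the build hg38, although all gene symbols are those of mouse. The 3 macrophage tables hold log2 values that the authors made, which fit log2(CPM + 0.0001), and the P4 table holds FPKM values deposited by the authors. Rows without a gene name, 36 in culture (0.290% to 0.560% of the total) and 429 in P4 (0.233% to 0.327%), were left out. Of rows with the same symbol the one with the highest mean was kept, which dropped 56 rows in culture and 27 in P4. Of values up to 50 reads, 74.0% to 89.8% came out whole within 0.05, so counts were not recovered and no count model was used.

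Values were changed to CPM and tested as log2(CPM + 1) with limma 3.58.1 (R 4.3.3, trended empirical Bayes), Benjamini-Hochberg over all genes, threshold 0.05. Genes needed 1 CPM in 2 libraries of the knockout experiments, or in 1 of the sort. One fit held all 4 knockout-experiment groups, with no block. Culture and P4, with 1 library a group, were compared as log2 ratios with 0.1 CPM or 1 FPKM added, for genes of at least 1 in the higher library. Non-overlapping groups are those where every library of 1 group lies above every library of the other. The labels do not say whether samples came from separate mice, so p-values measure the spread between samples. In the knockout fit that spread came mostly from the trend over all genes, with 97.3 prior against 4 residual degrees of freedom. The SE, interval and p-value of a gene there lean on that trend more than on its own libraries.

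The members and lists were chosen with earlier results of these data known. All 38 members are accounted for. Some values of genes outside the module are not reported here. Values per library are given for members that passed, for the 3 highest and 3 lowest in each comparison, and for Fos, Jun, Egr1, Dusp1, Hspa1a, Hspa1b, Hspa8 and Hsp90aa1. The Cre line comparison and the sort filter of 2 libraries were added after the values were seen. Others tried were pseudocounts, filters, scalings, no trend, weights, a replicate block, summed Hspa1a and Hspa1b, and leaving out each library. The fit was tested on simulated data.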

Additional observations from a re-analysis of the deposited data

Results flagged for a closer look

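Gadd45a, a growth arrest gene, moved in opposite directions with the AKT inhibitor in culture. Without CXCL12 it had 9.33 CPM in untreated cells and 38.6 CPM with the inhibitor, a log2 ratio of 2.04. With CXCL12 it had 10.1 CPM without the inhibitor and 1.12 CPM with it, a log2 ratio of -3.06. The 4 wells are 1 library each, so this difference was not tested. Of 13119 genes measured in both pairs, 2094 (16.0%) also went opposite ways by at least 2-fold in each.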

How the results depend on the processing

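The direction of the heat shock difference between the Cre lines held under every setting tried, and the number of its calls did not. With genes of at least 10 CPM, quantile normalization or no mean-variance trend 0 members passed, and with the replicate block 5 did. In the CXCR4 sort 0 members passed as planned, 7 with genes of at least 10 CPM and 7 with at least 1 CPM in 2 libraries. The median over its heat shock genes was -0.80 with quantile normalization and -0.68 with median-ratio scaling. Median-ratio scaling turned the Cxcl12 knockout differences of Egr1 (-0.18), Hspa1a (-0.13), Hspa1b (-0.12) and Hsp90aa1 (-0.0674), the line difference of Egr1 (-0.0812) and the sort difference of Dusp1 (0.0652). Quantile normalization turned Hspa8 in the Cxcl12 knockout (0.00380) and Fos in the difference between the knockouts (-0.0185). The causes were not tested. Over all genes, the median was 0.14 as deposited and 0.01 after quantile normalization in the Cxcr4 knockout, 0.36 and 0.02 in the Cxcl12 knockout, 0.20 and 0.02 between the lines and -0.16 and -0.02 in the sort.

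Leaving out each library in turn gave, in the Cxcr4 knockout, 0 to 2 members past the threshold (2 without LysM-Cre control 2) and log2 differences of -0.59 to -0.00239 for the median of immediate early genes, -0.74 to 0.10 for the median of heat shock genes, -0.65 to 0.00814 for Fos, -1.17 to 0.0832 for Jun, -3.61 to 0.10 for Egr2, -2.74 to 0.13 for Egr3, -0.65 to 0.11 for Dusp1, -0.59 to 1.31 for Dusp5, -0.10 to 0.59 for Klf6, -0.17 to 0.78 for Myc, -1.88 to 0.60 for Hspa1a, -1.83 to 0.33 for Hspa1b and -0.53 to 0.00294 for Hsp90aa1. In the Cxcl12 knockout the ranges were -0.33 to 0.0484 for the median of immediate early genes, -0.0444 to 0.17 for the median of heat shock genes, 0.71 to 2.19 for Ier3, 0.81 to 4.04 for Gadd45a, 0.28 to 3.12 for Hspb1, -0.24 to 0.30 for Egr1, -0.81 to 0.11 for Dusp1, -0.59 to 0.76 for Hspa1a, -0.22 to 0.40 for Hspa1b and -0.47 to 0.15 for Hspa8. In the difference between the knockouts they were -0.71 to 0.14 for the median of immediate early genes, -0.71 to -0.00173 for the median of heat shock genes, -0.26 to 0.40 for Fos, -0.90 to 0.36 for Jun, -3.40 to 0.32 for Egr2, -0.83 to 1.42 for Ier2, -0.38 to 0.54 for Dusp1, -1.96 to 0.52 for Hspa1a, -1.92 to 0.24 for Hspa1b and -0.61 to 0.0113 for Hspa8. Between the lines 0 to 6 members passed, and the ranges were -0.18 to 0.0169 for the median of immediate early genes, 0.76 to 1.35 for the median of heat shock genes, -0.0138 to 0.61 for Jun, -1.43 to -0.51 for Jund, -0.22 to 0.36 for Egr1, -2.06 to -0.74 for Ier3, -0.45 to 0.00675 for Dusp1, 0.69 to 1.93 for Hspa1a and 1.15 to 2.23 for Hspa1b. In the sort, where leaving out a positive library gives values with no test, it was -0.92 to -0.85 for the median of heat shock genes, and the negative library cannot be left out.

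Replicate numbers were not treated as pairing the samples: the 6 correlations of same-numbered deviations ran from 0.0573 to 0.139, and not every one was over 0.1. With the number as a block, 0 members passed in either knockout and 5 between the lines, where Hspa1a and Dnaja1 joined the 3. Depth limits Gadd45a and Hspb1, which had under 1 CPM in the shallowest library, and 2 libraries a group limit every knockout comparison.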
